A study of Mus musculus with 2 samples.

Results

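The 10 genes described here carry fatty acid uptake and handling in endothelium. They were taken by name, with earlier results of these data known. They form a small part of the 17641 genes listed for normal mammary endothelial cells (NECs) and the 15644 listed for tumor endothelial cells (TECs). Of these, 14976 genes are in both tables. All 10 are listed in both. They are Cd36, Fabp4, Fabp5 and Aqp7 for uptake and binding, Gpihbp1, Lpl and Angptl4 for lipolysis at the vessel wall, Plin2 for storage, and Pparg and Tcf15 as regulators. The study sorted CD45-/CD31+ cells and counted their transcripts in droplets. It holds 2 libraries. The NEC library came from pooled normal mammary glands of C57BL/6 mice aged 6 to 8 weeks. The TEC library came from pooled orthotopic tumors of E0771, a mouse mammary carcinoma line, for which the labels give no strain or age. No allele or agent is named for either group. Some labels of the NEC library read TECs and E0771, while its title and the deposited design give normal glands, and it was read as normal. With 1 library per condition no test was possible, and every interval below is a 95% interval that covers counting error between these libraries only.

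Fatty acids reach tissues mainly as triglyceride in lipoproteins. LPL, made by the parenchyma and carried to the capillary lumen by the endothelial protein GPIHBP1, splits the triglyceride, and ANGPTL4 inhibits it. Endothelial cells then take up the freed fatty acids with the surface translocase CD36 and move them with the cytosolic binding proteins FABP4 and FABP5, while excess is held in droplets coated by PLIN2 and glycerol passes through the channel AQP7. PPARG drives many of these genes, and TCF15, together with MEOX2, is known to activate Cd36 and Lpl in capillaries of heart and muscle.

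The members are spread over the genome (GENCODE M21, GRCm38). Fabp5 (chr3:10012548-10016607) and Fabp4 (chr3:10204088-10208576) are near neighbours, and Cd36 (chr5:17781690-17888801), Aqp7 (chr4:41033074-41048139), Plin2 (chr4:86648386-86670060), Gpihbp1 (chr15:75596628-75599481), Lpl (chr8:68880491-68907448), Angptl4 (chr17:33773750-33781830), Pparg (chr6:115360951-115490399) and Tcf15 (chr2:152143561-152149097) are apart. Fabp5 has a processed copy elsewhere in the genome, and how reads of the pair were divided is not given in the sources used here. Promoters from RefSeq (GRCm38.p6, 250 bases before to 50 after a start site) matched 4 members, Cd36, Aqp7, Plin2 and Pparg, with 7 start sites. The nuclear receptor hexamer AGGTCA, read on either strand, was in 6 of the 7 windows, 2 of which overlap, and in 16.3% of 32851 promoters. A direct repeat of 2 copies of AGGTCA with 1 base of any kind between them, the element to which PPARG binds with RXR, was in 0 of the 7 windows and in 0.0396% of promoters on either strand. The 250 bases before the start site are printed for 3 windows, 5′ to 3′ on the gene's strand, because Cd36 and Aqp7 were lower in TECs and Plin2 was not. The capitals mark AGGTCA, which reads TGACCT on the other strand, and in Plin2 also ACGTG, the core of a hypoxia response element, found in 19.6% of promoters.
Cd36 (chr5:17835897-17836146, minus strand): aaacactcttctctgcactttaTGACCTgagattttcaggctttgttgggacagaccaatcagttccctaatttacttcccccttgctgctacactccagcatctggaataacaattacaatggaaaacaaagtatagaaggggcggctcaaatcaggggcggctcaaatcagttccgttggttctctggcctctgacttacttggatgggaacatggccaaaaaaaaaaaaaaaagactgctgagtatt
Aqp7 (chr4:41048137-41048386, minus strand): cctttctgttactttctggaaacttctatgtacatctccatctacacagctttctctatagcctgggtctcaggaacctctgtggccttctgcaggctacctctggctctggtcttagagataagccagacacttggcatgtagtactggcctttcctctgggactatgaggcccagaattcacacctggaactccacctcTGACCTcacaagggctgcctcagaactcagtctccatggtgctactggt
Plin2 (chr4:86670060-86670309, minus strand): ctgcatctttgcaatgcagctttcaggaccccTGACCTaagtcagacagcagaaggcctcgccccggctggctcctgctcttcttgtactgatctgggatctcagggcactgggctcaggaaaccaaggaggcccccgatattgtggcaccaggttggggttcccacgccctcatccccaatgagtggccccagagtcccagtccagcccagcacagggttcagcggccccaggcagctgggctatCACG
The hexamer lies 228 bases before the start site in Cd36, 49 in this window of Aqp7 and 218 in Plin2, and the ACGTG of Plin2 crosses the start site. A match is only a match of letters.

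Cells were kept with at least 200 genes, under 10% mitochondrial UMIs (unique molecular identifiers, 1 per captured transcript), no UMI of Ptprc, Myh11, Epcam or Cspg4, and at least 1 UMI of Cdh5 or Pecam1, which in TECs had to exceed the cancer cell genes Rhox5, Hmga2 and Krt8. This left 4940 of 9047 NEC barcodes with 17327221 UMIs and 261 of 704 TEC barcodes with 4646103. The cells differed in depth, with a median of 2976.5 UMIs in NECs and 16989 in TECs. Levels are given as CPM, the UMIs of a gene for each 1000000 UMIs summed over a group of cells. A list of 10 endothelial genes stood at 7775 CPM in NECs and 7929 CPM in TECs, against 103 CPM in 698 Epcam+ barcodes of the NEC library without Cdh5 or Pecam1 and 83.7 CPM in 131 cancer-like barcodes of the TEC library, with at least 2 UMIs of the cancer cell genes and none of Cdh5 or Pecam1. Among the 4940 and 261 cells, no barcode was shared between libraries.

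TECs held far less of most transcripts for fatty acid entry than NECs. Of the 10 members, 7 were at least 2-fold lower in TECs (Cd36, Fabp4, Fabp5, Aqp7, Lpl, Pparg and Tcf15), 1 was at least 2-fold higher (Angptl4), and Gpihbp1 and Plin2 were within 2-fold. Among the 13061 genes listed in both tables with at least 10 UMIs over both groups, 26.0% were 2-fold or more lower and 11.2% were higher. The median log2 ratio was -2.51 over the members and -0.20 over the 12507 of these genes with UMIs in both groups. Since the members were chosen with earlier results of these data known, their difference from all genes is a description only.

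**Figure D1:**
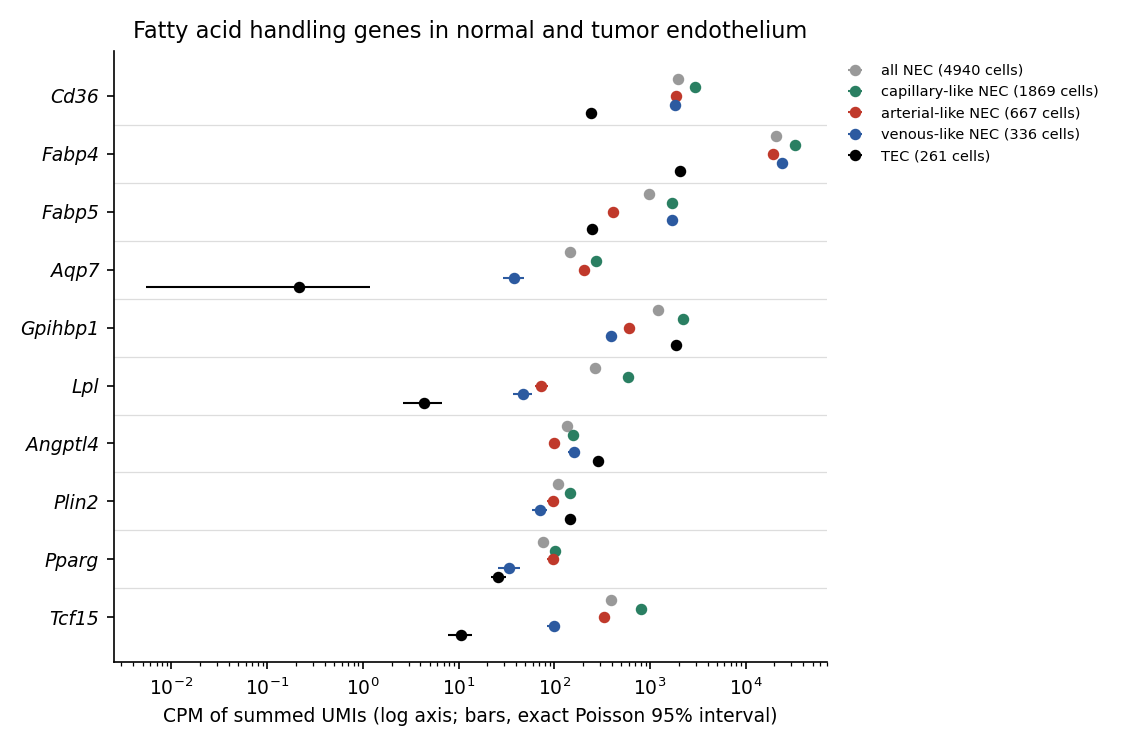
CPM of summed UMIs on a log axis for the 10 members in all NECs, in the capillary-like, arterial-like and venous-like NECs, and in TECs; points are levels and bars exact Poisson 95% intervals. TECs (black) lie to the left of all 3 vessel classes for Cd36, Fabp4, Fabp5, Aqp7, Lpl, Pparg and Tcf15, and between or to the right of them for Gpihbp1, Angptl4 and Plin2.

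Of the uptake genes, Cd36 stood at 1975 CPM (1954 to 1996) in NECs and 243 CPM (229 to 257) in TECs, which is 8.14-fold lower with a log2 ratio of -3.02 (-3.11 to -2.94). Fabp4, which alone made up 20801 CPM of NECs, was at 2048 CPM in TECs, 10.2-fold lower (log2 ratio -3.34, -3.37 to -3.31). Fabp5 was at 975 CPM and 245 CPM (log2 ratio -1.99, -2.08 to -1.90). The drop was thus smaller for Fabp5 than for its neighbour Fabp4, and their intervals do not overlap. Aqp7 had 2515 UMIs in NECs, or 145 CPM, and 1 UMI in TECs, or 0.215 CPM (0.00545 to 1.199). Its log2 ratio of -9.40 has a wide interval, from -14.70 to -6.92.

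The 3 genes of lipolysis at the vessel wall differed in direction. Gpihbp1, the lipase carrier, was at 1210 CPM (1194 to 1226) in NECs and 1862 CPM (1823 to 1902) in TECs, a log2 ratio of 0.62 (0.59 to 0.66), which became -1.02 (-1.06 to -0.99) without the endothelial gate, where cancer-like barcodes were let in. Lpl, the lipase itself, was at 264 CPM in NECs and 4.30 CPM in TECs, or 4567 UMIs and 20 (log2 ratio -5.94, -6.65 to -5.31). Angptl4, the lipase inhibitor, was at 135 CPM (130 to 141) in NECs and 290 CPM (275 to 306) in TECs, 2.14-fold higher (log2 ratio 1.10, 1.00 to 1.195), and it was under 2-fold at equal depth (0.78) and over capillary-like NECs alone (0.87), and -0.08 without the gate. The directions of the carrier and the inhibitor thus turned with the gate, and that of the lipase did not.

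Plin2, the droplet coat protein, was at 110 CPM in NECs and 145 CPM in TECs (log2 ratio 0.40, 0.27 to 0.53). It was higher still in the 131 cancer-like barcodes, at 219 CPM. Of the regulators, Pparg was at 76.6 CPM (72.5 to 80.8) and 26.0 CPM (21.6 to 31.1), a log2 ratio of -1.56 (-1.84 to -1.29). Tcf15 was at 388 CPM in NECs and 10.5 CPM in TECs, or 6727 UMIs and 49 (log2 ratio -5.20, -5.64 to -4.80). Its partner Meox2, which is no member, was at 132 CPM in NECs and 183 CPM in TECs (log2 ratio 0.47).

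Other cells of the gland also use these genes. A list of 10 adipocyte genes without members summed to 260 CPM in NECs and 18.5 CPM in TECs, where 5 of the 10 are listed and Cfd and Car3 were at 0. Lipe was its top gene at 120 CPM in NECs, and Adipoq stood at 5.08 CPM. A list of salivary genes was at 2228 CPM in NECs, with 9 of 10 listed, and in TECs the 1 listed gene was at 0, and macrophage genes were at 17.4 CPM and 22.2 CPM. In the Epcam+ barcodes, where the salivary list stood at 151795 CPM, Fabp4 stood at 277 CPM and Cd36 at 23.1 CPM, far below the kept NECs, while Angptl4 was at 132 CPM, close to them. The part of other cells' RNA in the member ratios was not tested. Without the NEC clusters led by adipocyte, salivary, mural or lymph node vessel genes (clusters 10, 11, 15 and 13), 7 members were again 2-fold lower and 1 higher in TECs. Cluster 1 was kept in this count, although its adipocyte list stood at 835 CPM, beside 860 CPM in cluster 10. The count is therefore no test of adipocyte RNA.

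At equal depth, the share of cells with a UMI moved the same way. A random draw of 1500 UMIs was taken from every cell, and 684 NECs and 11 TECs below that depth were left out. Fabp4 was then detected in 96.5% of 4256 NECs and 52.0% of 250 TECs, Cd36 in 75.2% and 24.4%, and Fabp5 in 53.2% and 22.0%. Without thinning the shares were 98.6% and 73.6% for Fabp4, 83.0% and 68.2% for Cd36, and 66.1% and 45.6% for Fabp5. Tcf15 was in 36.8% and 2.40%, Lpl in 25.7% and 0.40%, and Pparg in 10.7% and 4.80%. Aqp7 was in 19.5% of NECs and 0 of 250 TECs, a count that allows a UMI in up to 1.2% of such thinned cells if 3 are allowed for, with a Clopper-Pearson limit of 1.46%. Gpihbp1 went the other way, at 63.9% (62.4 to 65.3%) of NECs and 83.6% (78.4 to 88.0%) of TECs. Without thinning, the deeper TECs gave shares that cannot be set against NECs, with 51.6% and 13.03% for Tcf15, 34.9% and 3.07% for Lpl, 30.3% and 0.383% for Aqp7, 19.6% and 30.3% for Pparg, 74.8% and 95.02% for Gpihbp1, 20.3% and 70.9% for Angptl4 and 25.4% and 72.0% for Plin2 in NECs and TECs.

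The background for these shares came from barcodes that should lack endothelial genes. In the Epcam+ barcodes thinned to the same depth (median 10806 UMIs before), Fabp4 was in 28.0%, Cd36 in 3.94%, Gpihbp1 in 2.34% and Tcf15 in 0.584%, and in the cancer-like barcodes (median 48895 UMIs) Fabp4 was in 4.69% and Cd36 in 0 of 128. For Lpl the thinned shares rested on 1 cell, at 0.40% of TECs and 0.781% of cancer-like barcodes, so that no order can be read from them, while over all UMIs its level was 4.30 CPM (2.63 to 6.65) in TECs and 0.437 CPM (0.0900 to 1.28) in cancer-like barcodes. Angptl4 was in 12.9% of NECs and 17.4% of Epcam+ barcodes, and in 26.0% of TECs and 8.59% of cancer-like barcodes. Plin2 was in 18.0% of TECs and 23.4% of cancer-like barcodes. Neither gene is particular to endothelium and these barcodes may express them, so that for Angptl4 and Plin2 they give no background.

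The level in TECs was uneven between cells. The median TEC held 1 Fabp4 UMI in 1500, against 25 in NECs, and 5 of 250 TECs reached the NEC median. The 10 TECs with most Fabp4 held 35.5% of its thinned UMIs. Cd36 was at a median of 0 in TECs and 2 in NECs, and 22 of 250 TECs reached 2. For Gpihbp1 the medians were 2 in TECs and 1 in NECs, and its top 10 TECs held 15.04% of the UMIs.

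**Figure D2:**
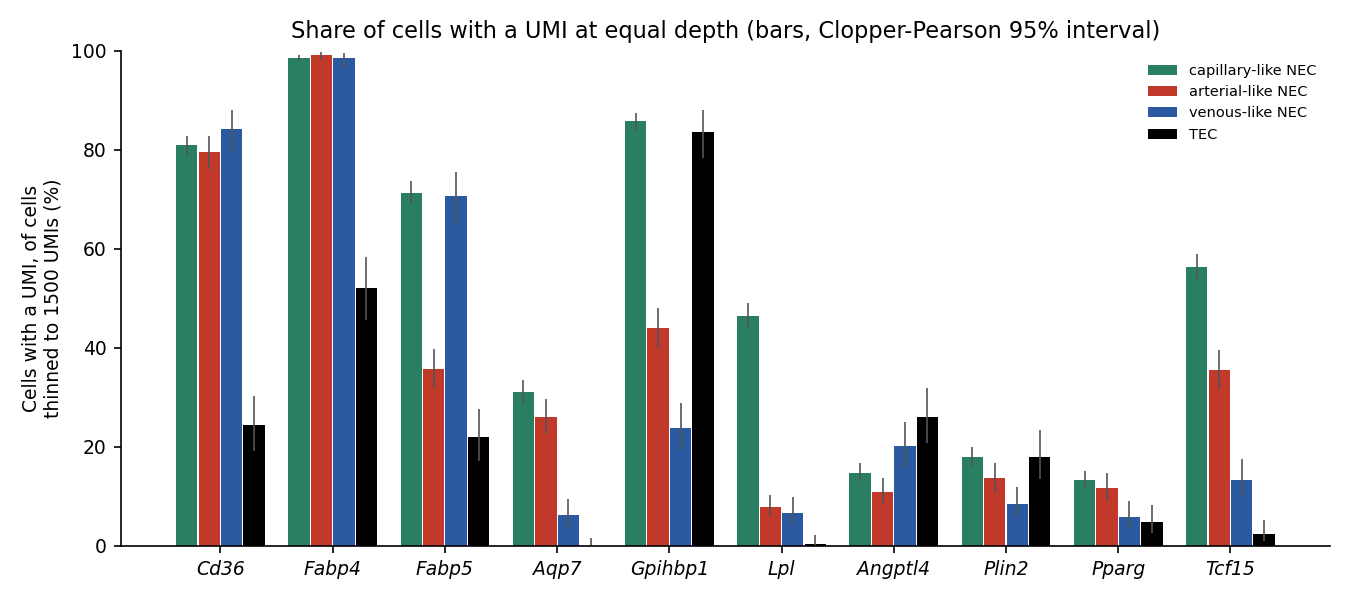
Share of cells, in percent, with at least 1 UMI of each member after thinning to 1500 UMIs per cell, in the 3 NEC vessel classes and in TECs; lines are Clopper-Pearson 95% intervals. Gpihbp1 was found in 83.6% of TECs, near the 85.7% of capillary-like NECs, while Aqp7, Lpl and Tcf15 were in 2.40% of TECs or fewer.

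To set TECs against vessel types, the NECs were clustered without the members, and clusters were named from marker lists. Of 17 clusters, 3 were capillary-like (1869 cells, 37.8%), 2 arterial-like (667 cells, 13.5%) and 1 venous-like (336 cells, 6.80%). The arterial-like clusters held Fbln5 among their leading genes, beside Gja5 and Bmx in cluster 4 and Nebl and Fn1 in cluster 9, with 13 and 14 of the list's markers raised, and the venous-like cluster 6 was led by Selp, Ackr1 and Sele, with 10 raised. The capillary-like clusters rested on 3, 5 and 6 markers. They differed among themselves, cluster 0 being led by Car8 and Timp4, cluster 1 by Gpr160, Cldn15 and Car4, and cluster 3 by Meis2 and Ramp3 with Plvap, the diaphragm protein of fenestrae, at 3986 CPM against 63.2 CPM and 164 CPM in the other 2. Cluster 0 also had the tip cell markers Col4a1, Col4a2, Lama4, Trp53i11 and Pxdn raised, more than its capillary markers. Naming by the list with most raised markers left it out of the capillary-like class, which then held 1105 cells. The rule used here for the names was set after the clusters had been seen. Cluster 2, with 531 cells, had the same 6 capillary markers raised as cluster 3, beside interferon markers. None of them was among its leading genes, and it stayed unnamed and outside the capillary-like class. In clusters 2 and 3, Cd36 stood at 475 CPM and 413 CPM and Tcf15 at 177 CPM and 151 CPM.

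The vessel types changed what TECs were set against. Relative to capillary-like NECs, 7 members were 2-fold or more lower in TECs and 0 higher, beside 23.8% and 14.2% of 11786 genes. Relative to arterial-like NECs the counts were 6 and 2 (21.5% and 16.2% of 11367 genes), and relative to venous-like NECs 6 and 2 (18.4% and 16.1% of 11240). These comparisons share the TECs. Cd36, Fabp4, Aqp7, Lpl and Tcf15 were lower than in each class, by a log2 ratio of -2.91 or more in size. Fabp5 was within 2-fold of arterial-like NECs (-0.76, -0.89 to -0.63), in which it is low, and Pparg did not differ beyond counting error from venous-like NECs (-0.38, -0.85 to 0.10). Gpihbp1 in TECs was 1.63 above arterial-like NECs and 2.25 above venous-like NECs on the log2 scale, but 0.26 below capillary-like ones (log2 ratio -0.26, -0.30 to -0.22). Plin2 in TECs was level with capillary-like NECs (0.01, -0.15 to 0.16).

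**Figure D3:**
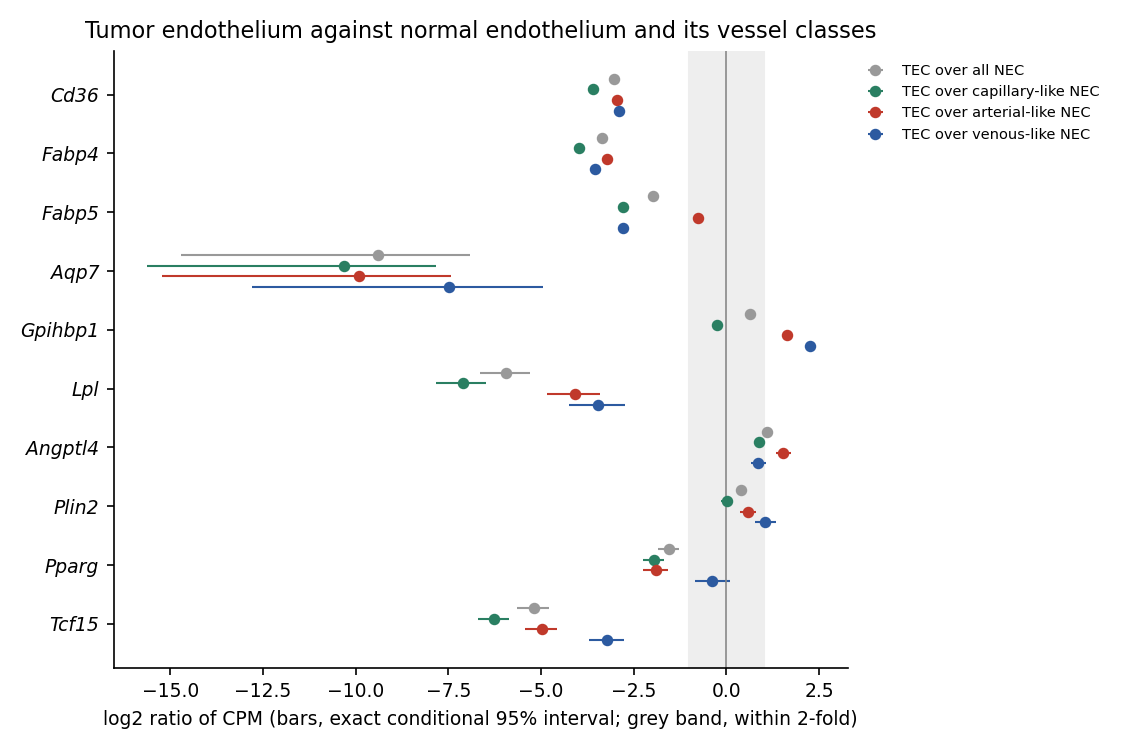
Log2 ratio of CPM in TECs over all NECs and over each of 3 NEC vessel classes, for the 10 members; bars are exact conditional 95% intervals and the grey band marks ratios within 2-fold. Cd36, Fabp4, Aqp7, Lpl and Tcf15 lie left of the band in all 4 comparisons, and Gpihbp1 runs from -0.26 over capillary-like NECs to 2.25 over venous-like NECs.

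TECs formed 4 clusters of their own, and none took an arterial, venous or capillary name. An interferon-like cluster had 103 cells, a mitotic-like cluster 54, a tip-like cluster 47, and an unnamed cluster of 57 cells was shallow, with a median of 2198 UMIs. From the lowest to the highest of these 4, the level ranged 1.52-fold for Fabp5 to 2.47-fold for Angptl4, leaving out Aqp7, Lpl and Tcf15. Tcf15 ranged 2.94-fold, but its lowest level was 1 UMI in the unnamed cluster (5.28 CPM, 0.134 to 29.4). Cd36 was at 347 CPM in the interferon-like cluster and at 174 CPM and 176 CPM in the mitotic-like and tip-like ones. Gpihbp1 was highest in the interferon-like cluster at 2448 CPM and lowest in the mitotic-like one at 1304 CPM, and Fabp4 ranged from 1763 CPM to 2788 CPM. Markers of the arterial, capillary and venous lists were raised in the interferon-like cluster as well, among them Sema3g, Hey1, Kdr, Plvap and Vwf. Angptl4 stood out in the tip-like cluster at 509 CPM, against 234 CPM, 219 CPM and 206 CPM in the other 3, and its log2 ratio over the interferon-like cluster was 1.12 (0.94 to 1.31). Plin2 was not raised with it, at 162 CPM beside 183 CPM in the interferon-like cluster. The single Aqp7 UMI was in the unnamed cluster, and the 20 Lpl UMIs were split 12, 0, 7 and 1 among the interferon-like, unnamed, mitotic-like and tip-like clusters.

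Tip-like and mitotic-like cells were found in both libraries and can be set side by side, although NECs gave only 59 and 30 of them and TECs were deeper. In tip-like cells, Cd36 was at 2053 CPM (1896 to 2221) in NECs and 176 CPM (152 to 203) in TECs, Tcf15 at 446 CPM (374 to 528) and 7.62 CPM (3.29 to 15.01), and Lpl had 88 UMIs and 1. Angptl4 was at 259 CPM (205 to 323) in tip-like NECs and 509 CPM (467 to 554) in tip-like TECs, and Gpihbp1 was at 2401 CPM and 1729 CPM. In mitotic-like cells, Cd36 was at 1023 CPM and 174 CPM, Fabp4 at 10530 CPM and 1763 CPM, and Tcf15 at 200.3 CPM and 7.498 CPM. Gpihbp1 was at 647 CPM (557 to 747) in mitotic-like NECs and 1304 CPM (1249 to 1361) in mitotic-like TECs. The intervals of the pairs printed here with intervals do not overlap, and the order of Gpihbp1 differed between tip-like and mitotic-like cells.

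Within normal endothelium, the capillary-like cells held more of several members. Capillary-like NECs were 2-fold or more above arterial-like NECs for 4 members, Fabp5, Gpihbp1, Lpl and Tcf15 (9.67% of 11518 genes were that much higher), and below for 0 (8.20%). The 4 became 7 without cluster 3, 2 when each cell was classed by its own marker UMIs, and 9 without the top 5% of cells by UMIs, where a single cluster took the capillary name. They were 2-fold or more above venous-like NECs for 6, Aqp7, Gpihbp1, Lpl, Plin2, Pparg and Tcf15 (10.9% of 11370 genes), and below for 0 (7.58%). Arterial-like NECs were 2-fold or more above venous-like NECs for 3, Aqp7, Pparg and Tcf15 (10.2% of 10743 genes), and below for 1, Fabp5 (8.59%), and the 3 became 5 with cells classed by their own marker UMIs. The median log2 ratio of the members was 0.71 for capillary over arterial, 1.31 for capillary over venous and 0.55 for arterial over venous. Over all genes compared that had UMIs in both classes, it was 0.07, 0.15 and 0.07.

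The 3 classes were ordered differently from member to member. Lpl showed the widest step, at 595 CPM (573 to 617) in capillary-like, 73.5 CPM (62.6 to 85.8) in arterial-like and 47.2 CPM (37.3 to 59.0) in venous-like NECs, with a log2 ratio of 3.02 over arterial and 3.65 over venous cells. Gpihbp1 followed the same order at 2232 CPM, 601 CPM and 391 CPM. Tcf15 stepped down from 807 CPM to 334 CPM and 98.7 CPM (log2 ratio 1.27 between the former pair and 1.76 between the latter). Aqp7 and Pparg were lowest in venous-like cells. Aqp7 was at 275 CPM in capillary-like, 207 CPM in arterial-like and 38.2 CPM in venous-like cells. In the same order, Pparg was at 101 CPM, 97.6 CPM and 33.9 CPM. The capillary and arterial levels of Pparg did not differ beyond counting error (log2 ratio 0.06, -0.18 to 0.29), but the ratio ran from -1.18 to 1.16 over 19 settings of the clustering, filters and scaling. In the same settings Cd36 ran from -0.10 to 1.46, Fabp4 from -0.09 to 1.60, Aqp7 from -0.49 to 1.1998, Angptl4 from -2.42 to 2.13 and Plin2 from -0.92 to 1.75, so that their order between capillary-like and arterial-like cells turned with the setting. Lpl (1.06 to 3.98) and Gpihbp1 (1.02 to 2.43) stayed 2-fold or more higher in capillary-like cells in all 19. Tcf15 (0.16 to 2.13) and Fabp5 (0.84 to 2.45) were higher in all 19, but not always 2-fold or more. Over venous-like cells, Fabp4 ran from -0.30 to 1.19.

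The binding protein Fabp5 was shared by capillary-like and venous-like cells instead. It stood at 1704 CPM and 1686 CPM in these (log2 ratio 0.02, -0.05 to 0.08) and at 416 CPM in arterial-like cells. Fabp4 and Cd36 were high in all 3 classes, Fabp4 at 32493 CPM, 19186 CPM and 23751 CPM and Cd36 at 2965 CPM, 1865 CPM and 1825 CPM in capillary-like, arterial-like and venous-like cells, and Cd36 did not differ between the last 2 beyond counting error (0.03, -0.04 to 0.10). Angptl4 was at 158 CPM, 99.9 CPM and 159 CPM, and Plin2 at 145 CPM, 97.6 CPM and 70.3 CPM. Both rested on cluster 1, without which the log2 ratio of capillary over venous was -2.98 for Angptl4 and -0.37 for Plin2. The 2 arterial-like clusters were not alike either, with Fabp5 at 564 CPM in cluster 4 and 202 CPM in cluster 9, Gpihbp1 at 748 CPM and 390 CPM and Lpl at 104 CPM and 29.9 CPM. The adipocyte list was uneven as well, at 406 CPM in capillary-like, 105 CPM in arterial-like and 153 CPM in venous-like cells.

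The capillary name covered cells that were far apart in these genes. In cluster 1, led by Gpr160, Cldn15 and Car4, 7 of the 10 members were higher than in clusters 0 and 3, and in cluster 3, rich in Plvap, most were low. In clusters 1, 0 and 3, Cd36 stood at 5158 CPM, 3209 CPM and 413 CPM, Fabp4 at 60424 CPM, 29012 CPM and 8141 CPM, and Aqp7 at 498 CPM, 290 CPM and 27.6 CPM. Cluster 1 was thus 12.5-fold above cluster 3 for Cd36 and 18.0-fold for Aqp7. Cluster 3 lay below even the venous-like cluster for Cd36 and Fabp4.

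Clusters 0 and 1 divided the members between them. Tcf15 and Lpl were highest in cluster 0, at 1451 CPM against 671 CPM in cluster 1 for Tcf15 (log2 ratio of cluster 1 over 0, -1.11) and 1114 CPM against 535 CPM for Lpl (-1.06). Angptl4, Plin2 and Pparg were raised in cluster 1 instead. Angptl4 was at 459 CPM there and 19.6 CPM in cluster 0 (log2 ratio 4.55, 4.06 to 5.07), Plin2 at 342 CPM and 60.0 CPM (2.51, 2.21 to 2.82), and Pparg at 223 CPM and 67.6 CPM (1.72, 1.42 to 2.03). Fabp5 did not differ between them beyond counting error, at 2221 CPM and 2281 CPM. The adipocyte list summed to 835 CPM, 220 CPM and 196 CPM in clusters 1, 0 and 3, and its part in this split was not tested.

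**Figure D4:**
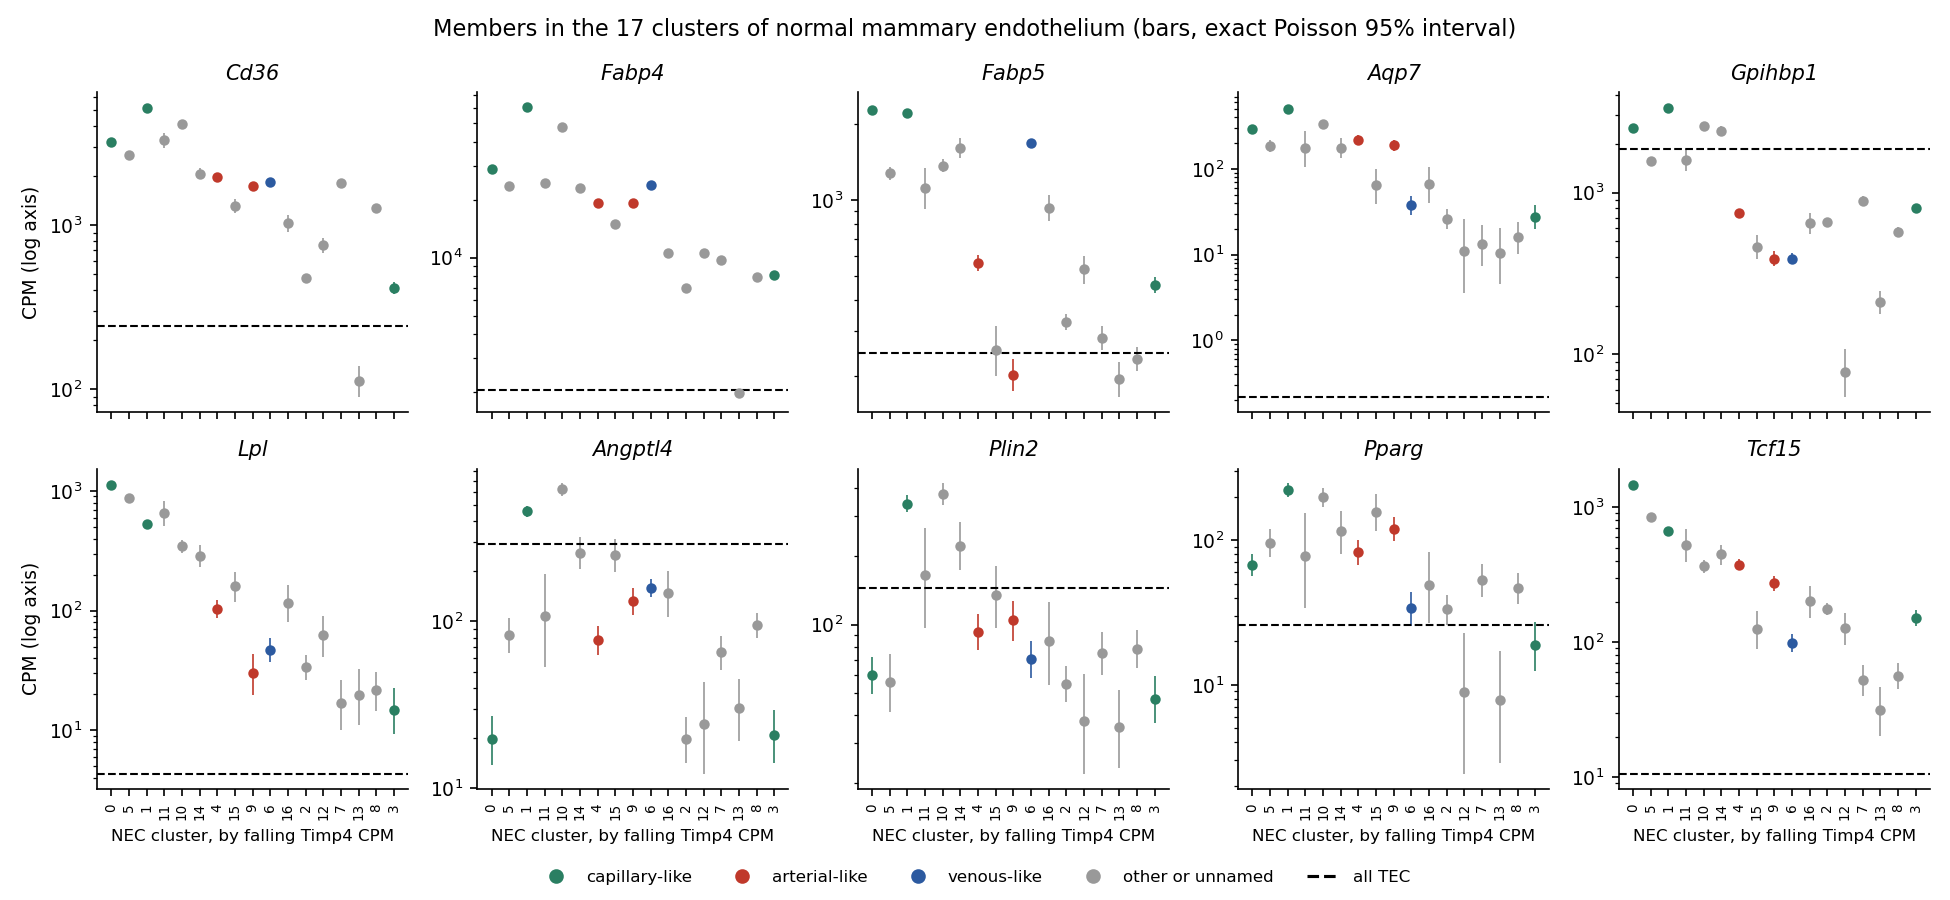
CPM on a log axis of each member in the 17 NEC clusters, ordered by falling Timp4 CPM and coloured by vessel class; bars are exact Poisson 95% intervals and the dashed line is the level in all TECs. Aqp7, Lpl and Tcf15 in TECs lie below all 17 clusters, while for Gpihbp1 the TEC line lies above 13 of them; Angptl4 and Plin2 peak in clusters 1 and 10.

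Across all 17 NEC clusters the range of a member ran from 10.6-fold for Plin2 to 75.2-fold for Lpl. Cd36 had its highest level in cluster 1 and its lowest, 111 CPM, in cluster 13, a cluster like high endothelial venules (HEVs) led by Glycam1. Fabp4, Fabp5, Aqp7, Plin2, Pparg and Tcf15 were also lowest in cluster 13, at 1981 CPM for Fabp4 and 31.5 CPM for Tcf15. TECs were below all 17 clusters for Aqp7, Lpl and Tcf15. For Cd36 and Fabp4 TECs were above 1 of the 17, the HEV-like cluster, in Fabp4 by less than the counting interval. For Gpihbp1 TECs were above 13. Angptl4 was highest in cluster 10 at 620 CPM, an unnamed cluster led by Mt2, Car3 and Cfd in which the adipocyte list stood at 860 CPM. In order of level, neighbouring clusters had overlapping intervals in 7 of 16 pairs for Cd36, 12 of 16 for Tcf15 and 16 of 16 for Pparg.

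Some members varied together over the 17 clusters. Pearson's r between log2 levels was 0.94 for Cd36 with Fabp4, 0.89 for Aqp7 with Tcf15, 0.88 for Angptl4 with Plin2, 0.87 for Lpl with Tcf15, and 0.21 for Angptl4 with Tcf15. These points share 1 library and differ in depth, and r is a description. Of 7917 genes with at least 200 UMIs, those most like Cd36 were Lrp6 (0.93), Ucp2 (0.89) and Agmo (0.88), those most like Gpihbp1 were Ctnnbip1 (0.96), Rflnb (0.92) and Fam57b (0.91), and those most like Fabp4 were Lrp6 (0.92), Cavin1 (0.86) and Agmo (0.85). For Tcf15 they were the caveolin gene Cav1 (0.94), Ctnna1 (0.92) and Afdn (0.91), and for Aqp7 Rfxap (0.94), Ablim3 (0.94) and Fam89a (0.90).

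Single cells showed which transcripts were found together. Among thinned NECs with a Gpihbp1 UMI, 47.3% also had Tcf15, 37.1% Lpl and 83.0% Cd36, against 18.3%, 5.60% and 61.4% of those without. Among 209 TECs with a Gpihbp1 UMI, 2.87% (1.06 to 6.14%) had Tcf15, 0.478% Lpl and 27.3% Cd36. Cd36, Gpihbp1 and Tcf15 were found in the same cell in 50.0% of capillary-like, 19.97% of arterial-like and 7.12% of venous-like NECs, and in 2.00% (0.653 to 4.61%) of TECs. In capillary-like NECs with an Angptl4 UMI, 38.9% had Plin2, against 14.4% of those without, and in TECs the shares were 18.5% and 17.8%.

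The wider pathway was described with 126 further genes in 9 lists. Of these, 99 are in both tables, and 96 with at least 10 UMIs over both groups were counted in TECs over NECs. A gene listed for NECs alone was not counted, here or among all genes. Of the 96, 32 were 2-fold or more lower in TECs and 4 higher, or 33.3% and 4.17%, beside 26.0% and 11.2% of all genes. Regulators stood lowest, with 8 of 13 lower and a median log2 ratio of -1.47, and fatty acid oxidation changed least, with 2 of 21 lower, 1 higher and a median of -0.11. Lower regulators were the oxysterol receptor Nr1h3 (-2.86), the VEGF co-receptor Nrp1 (-2.50) and Cebpb (-2.05). Of the transport and binding genes 4 of 12 were lower and 2 higher, with Slc27a3, an acyl-CoA synthetase of the fatty acid transport protein family, at -3.57 and the lipoprotein receptor Scarb1 at -2.13.

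**Figure D5:**
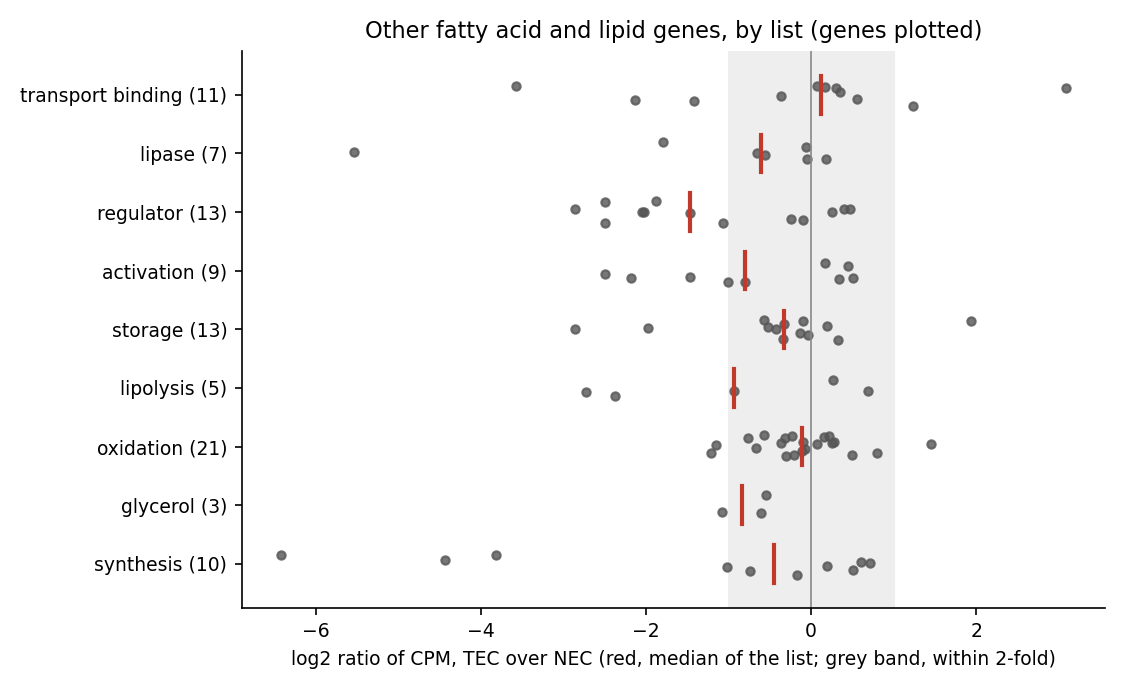
Log2 ratio of CPM in TECs over NECs for the counted genes of 9 lists of fatty acid and lipid genes; each point is a gene, the red line the median of its list and the grey band marks ratios within 2-fold, and 4 genes with 0 UMIs in TECs are left out. The median lies at -1.47 for regulators and at -0.11 for oxidation.

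Storage, breakdown and synthesis genes were mixed. In synthesis 4 of 10 were lower, with Thrsp, a lipogenic nuclear protein, at 240 CPM in NECs and 2.80 CPM in TECs (log2 ratio -6.42, -7.33 to -5.65), the desaturase Scd1 at -4.43 and the carboxylase Acacb at -3.82. In lipolysis 2 of 5 were lower, the hormone-sensitive lipase Lipe (-2.73) and the monoglyceride lipase Mgll (-2.38). Lipe is also the top gene of the adipocyte list, which stood at 260 CPM in NECs and 18.5 CPM in TECs. The part of adipocyte RNA in the ratios of the pathway genes was not tested. In storage 3 of 14 were lower and 1 higher, Dgat2 at -2.86, Lpin1 at -1.98 and Lpin3 at 1.94, and G0s2, an inhibitor of lipolysis, was at 59 UMIs in NECs and 0 in TECs, at least 5.27-fold lower if 3 UMIs are allowed for. Of the lipase partners 3 of 8 were lower, among them Apoe at 1208 CPM and 26.0 CPM (-5.54) and Pcsk6 (-1.79). In fatty acid activation 4 of 9 were lower, Acsl1 at -1.47 and Acot2 at -1.01 among them. Of the glycerol genes 2 of 4 were lower, with Gpd1l at -1.07. Oxidation held Acaa2 (-1.22), Pdk4 (-1.15) and Cpt1c (1.45).

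Between vessel classes the same lists were more even. Of 92 counted genes, 11 were 2-fold or more higher and 13 lower in capillary-like than arterial-like NECs, beside 9.67% and 8.20% of all genes, and of 89, 11 were higher and 7 lower in capillary-like than venous-like NECs, beside 10.9% and 7.58%. The shares that were higher, 11.96% and 12.4%, are near those of all genes. The regulator Meox1 was at 88.8 CPM in capillary-like and 13.2 CPM in arterial-like NECs (log2 ratio 2.75, 2.21 to 3.35), and Scarb1 at 493 CPM and 110 CPM (2.16, 1.97 to 2.36). Acsl1, which activates long-chain fatty acids, was 1.66 higher over arterial-like and 1.49 higher over venous-like NECs on the log2 scale. Thrsp was 1.58 and 2.40 higher, and Nrp1, the VEGF co-receptor, 1.57 and 1.49. Slc27a3 went the other way, with 29.3 CPM in capillary-like and 108 CPM in venous-like NECs (-1.89).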

How the data were processed

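The authors deposited 1 table of raw UMI counts per gene and barcode for each library, without normalization. The submitters' processing notes name Cell Ranger, Seurat and the build mm10, with versions not given in the sources used here. All barcodes held at least 500 UMIs. Gene positions came from GENCODE M21, whose GRCm38 is the build named mm10.

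Kept cells were clustered per library in Seurat 5.3.0 (R 4.3.3) with LogNormalize, 4000 variable genes, 20 principal components, 20 neighbors and a resolution of 0.8, after the members and the other fatty acid genes had been left out of the variable genes. A cluster took a class name when that list had most markers among the 10 leading genes by fold (members not counted), at least 3 markers in at least 25% of cells at 1.5-fold or more (5 CPM added), with no other list raised at double that number or more. This rule was set after the clusters had been seen. No doublet caller was run, and an alternative left out the top 5% of cells by UMIs. Members and lists were chosen with earlier results of these data known. Genes named are all members, pathway genes of at least 50 UMIs past 2-fold (at most 3 per list and direction), and the 3 genes most like each of 5 members over clusters (Pearson's r on log2 of CPM plus 1). Meox2 is named as the partner of Tcf15, outside that rule, and 1 gene that the rule names is not reported here.

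The software was numpy 2.4.6, pandas 2.3.3, scipy 1.17.1 and, for drawing, matplotlib 3.10.9, under Python 3.11.15. Sums have exact Poisson, ratios exact conditional binomial and shares Clopper-Pearson intervals. Ratios were counted for genes with at least 10 UMIs over both groups. On simulated data for TEC over NEC with 13495 genes, 96.1% of genes had their true ratio inside the interval, and 90.9% of those changed 8-fold. Counting at 2-fold found 47.8% of genes changed 2-fold and 100.0% of those changed 4-fold. The simulated counts were Poisson draws from 1 shared profile, the model on which the intervals rest. They check the calculation only, and hold no spread between cells or libraries. Alternatives varied the filters, gate, clustering, class names, normalization and depth.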

Additional observations from a re-analysis of the deposited data

How the results depend on the processing

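The count of 7 members lower in TECs was between 7 and 8 in 17 alternatives, and that of 1 higher member, Angptl4, fell to 0 without the endothelial gate, with cells thinned to 1500 UMIs and against capillary-like NECs alone. Without the gate, which let cancer-like barcodes in, the log2 ratio of Angptl4 was -0.082 and that of Gpihbp1 -1.02, the 8th lower member. The 4 members higher in capillary-like than arterial-like NECs became 9 without the top 5% of cells by UMIs, where 1 cluster of 731 cells took the capillary name, 2 with cells classed by their own marker UMIs, and 7 without the Plvap-rich cluster 3 (chosen after seeing the data). The 3 higher in arterial-like than venous-like NECs became 5 with cells classed by marker UMIs. Plin2 reversed in capillary-like over venous-like NECs, from a log2 ratio of 1.04 to -0.079 at a resolution of 0.4, -0.52 at under 5% mitochondrial UMIs, -0.38 with at least 1500 UMIs and -0.37 without cluster 1, in which it is high. Angptl4 in the same ratio ran from -3.11 to 1.43. In all other alternatives the counts of members stayed within 1.5 times. Other naming rules and the removal of clusters or of other cells' RNA were also chosen after seeing the data. The causes were not tested further. Normal and tumor cells came from 1 library each, so that library, depth and condition cannot be told apart. In TECs, although these were the deeper cells, the levels of Aqp7, Lpl and Tcf15 rest on few counts, with 1, 20 and 49 UMIs. No paired analysis was possible because each group has 1 library.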
